A study of Mus musculus with 18 samples.

Results

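Iron handling was followed through 9 genes: the plasma iron carrier transferrin (Trf), the transferrin receptor (Tfrc), the divalent metal importer DMT1 (Slc11a2), the endosomal and cell-surface ferrireductase Steap4, the iron exporter ferroportin (Slc40a1), its hormone hepcidin (Hamp), the ferroxidase ceruloplasmin (Cp), and the heavy and light subunits of ferritin (Fth1 and Ftl1). They are 9 of the 23951 genes in the deposited table. The set was chosen by function and with the data in view, because Trf was higher in fibroblasts of tumors than in fibroblasts of normal pancreas, so that comparison is described below and not tested. The filter for the tests required 1 FPKM or more in at least 3 libraries, and 8 of the 9 genes passed it: 6 of them reached that level in all 18 libraries, Slc40a1 in 17 and Steap4 in 15. Hamp did not pass.

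Poly(A) RNA came from cells sorted from fresh mouse pancreas and pancreatic tumors, in 18 libraries and 5 groups. Normal pancreatic fibroblasts (NPF, n = 3) came from mice with Elas-tTA/tetO-Cre and the reporter allele Rosa26+/EYFP. Cancer-associated fibroblasts (WT_CAF, n = 5) and tumor cells (WT_tumor, n = 4) came from mice with the same transgenes and, in addition, Trp53lox/lox. KO_CAF (n = 3) and KO_tumor (n = 3) came from mice of that second kind that also carried Saa3-/-, a deletion of serum amyloid A3. In this model the elastase promoter, which is active in acinar cells, drives the tTA that switches on Cre, so floxed alleles are recombined in the acinar lineage and the fibroblasts develop beside the recombined cells. The labels name no agent. The sources used here do not give the age of the animals, the sort markers, or whether any animal gave both fibroblasts and tumor cells. The series design calls the libraries of a group biological replicates.

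Most cells take up iron as ferric iron bound to transferrin, through the transferrin receptor and an endosome in which a Steap reductase turns ferric into ferrous iron and DMT1 carries it to the cytosol. Iron that is not used is stored in ferritin, a shell built of heavy subunits, which oxidize iron, and light subunits, which help it to mineralize, or leaves the cell through ferroportin, where ceruloplasmin or hephaestin oxidizes it for loading onto transferrin and where hepcidin closes the exit. Iron regulatory proteins tie these steps together: when iron is scarce they bind hairpins called iron-responsive elements, which blocks translation when the hairpin is in the 5′ UTR and protects the mRNA from decay when it is in the 3′ UTR.

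These hairpins were matched in 5 of the 9 members. They are shown because they divide those members into ones with control at the mRNA level, which FPKM can read, and ones with control of translation, which it cannot. They were searched on the sense strand of GENCODE M21 protein-coding transcripts (mouse build GRCm38, not the mm9 build of the table) as an unpaired C, 5 bases, the loop CAGTGN, and 5 bases able to pair with the first 5, with G–T pairs allowed. The loop is in capitals, in 27 bases written 5′ to 3′.
Fth1, 5′ UTR, chr19:9982733-9982759, plus strand: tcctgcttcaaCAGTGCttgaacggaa
Ftl1, 5′ UTR, chr7:45459780-45459806, minus strand: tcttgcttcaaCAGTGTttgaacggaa
Slc40a1, 5′ UTR, chr1:45925466-45925492, minus strand: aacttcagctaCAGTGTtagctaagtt
Tfrc, 3′ UTR, chr16:32631220-32631246, plus strand: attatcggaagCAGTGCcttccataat
Tfrc, 3′ UTR, chr16:32631599-32631625, plus strand: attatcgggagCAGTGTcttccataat
Tfrc, 3′ UTR, chr16:32631664-32631690, plus strand: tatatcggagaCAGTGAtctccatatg
Tfrc, 3′ UTR, chr16:32631711-32631737, plus strand: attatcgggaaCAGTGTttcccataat
Slc11a2, 3′ UTR of 1 transcript, chr15:100395154-100395180, minus strand: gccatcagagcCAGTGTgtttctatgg
The first 7 hairpins, of 4 members, had all 5 pairs, as had a match in 294 of 21877 genes searched (1.34%). That of Slc11a2 had 4 of 5 pairs, and with 4 or 5 pairs allowed a match was found in 2340 genes (10.7%). Over the 27 bases the Fth1 and Ftl1 elements had 25 identical bases and differed by C3T and C17T (Fth1 base first, positions from the 5′ end of the 27). No match was found for Trf, Steap4, Cp or Hamp. A match describes letters and not binding, and the table has 1 value per gene, so the Slc11a2 transcript with the hairpin could not be told from those without it.

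Before the members, the libraries were checked against their labels. FPKM (sequenced fragments scaled to the length of the transcript and to all mapped fragments of the library) summed to between 396646 and 919859 per library, and 10657 to 11670 genes reached 1 FPKM. Saa3 was at 0 to 1.85 FPKM in the 6 knockout libraries and at 2.75 FPKM or more in the 12 others. It had 892 to 4278 FPKM in WT_CAF 2 to 5 and 7.24 in WT_CAF 1, where NPF had 331, 5.32 and 3.13 and WT_tumor 4.10, 2.75, 106 and 3.13. The summed FPKM of 10 fibroblast markers ran from 3348 to 9854 in NPF, from 893 to 18960 in WT_CAF, from 8862 to 23697 in KO_CAF, from 20.6 to 681 in WT_tumor and from 13.0 to 155 in KO_tumor. That of 8 epithelial markers ran from 5.70 to 32.7 in NPF, from 29.9 to 627 in WT_CAF, from 2.62 to 211 in KO_CAF, from 2925 to 6501 in WT_tumor and from 4843 to 8551 in KO_tumor. Among the fibroblast markers, Col3a1 was listed at 0 in WT_CAF 2, 3 and 4 and in KO_CAF 1 and 2, against 314 to 9050 FPKM in the other CAF libraries. Col1a1 and Col1a2 were listed at 0 in KO_CAF 2, so the fibroblast sums of the CAF libraries do not all hold the same genes. The library labelled WT_CAF 1 stood apart in Saa3 and also had the lowest fibroblast sum of all fibroblast libraries (893) and the highest epithelial sum of them (627). That epithelial sum was mostly Krt8, Krt18 and Krt19 (252, 245 and 119 FPKM). Its Cdh1 was at 10.1 FPKM, and its Epcam, Krt7, Cldn4 and Cldn7 at 0.472 or less. By the mean log2(FPKM + 1) of the 8 epithelial markers, WT_CAF 5 (4.70) and KO_CAF 1 (3.98) stood above WT_CAF 1 (3.47). WT_tumor 4 had the lowest epithelial sum of the tumor cells, and its Epcam, a defining epithelial marker, was at 2.60 FPKM against 129 or more in the 6 other tumor libraries. Its Cldn4, Cldn7, Krt7, Cdh1 and Krt19 were also the lowest of the tumor cells, at 1.66, 5.95, 134, 46.5 and 438 FPKM. Its Krt8 and Krt18, at 1188 and 1109 FPKM, lay within the range of the other tumor libraries. Sums of 10 acinar markers ran from 1312 to 52726 in NPF, from 29.2 to 790 in WT_CAF, from 13.5 to 210 in KO_CAF, from 15.8 to 18843 in WT_tumor and from 9.87 to 27168 in KO_tumor. The labels also show 3 library formats: 5 libraries have no index in the label (the 3 NPF, WT_CAF 1 and WT_CAF 2), 8 have one of 6 bases and 5 one of 16 bases.

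Transferrin was present in every tumor-bearing group at a level that NPF did not reach. The NPF libraries had 8.69, 7.92 and 17.2 FPKM of Trf, and the WT_CAF libraries 82.5, 140, 420, 277 and 342. KO_CAF had 385, 146 and 176 FPKM, WT_tumor 165, 290, 246 and 124, and KO_tumor 53.4, 137 and 358. All 3 NPF libraries lay below the 15 others, and the 4 tumor-bearing groups overlapped one another. The gene was selected on the difference between WT_CAF and NPF, which was 3.22 on the log2(FPKM + 1) scale with library format in the fit and is given here without a test. That value rests on WT_CAF 1 and 2, the only WT_CAF libraries of the format of NPF, and was 3.60 without WT_CAF 1 and 2.84 without WT_CAF 2. The Trf level of the tumor cells was not compared with NPF by a test, because no tumor cell library shares the format of NPF and format and group cannot be told apart there. By rank within a library, Trf was at place 3731 to 6128 among all genes in NPF, at 194 to 723 in the CAF libraries and at 186 to 1206 in the tumor cells.

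**Figure D1:**
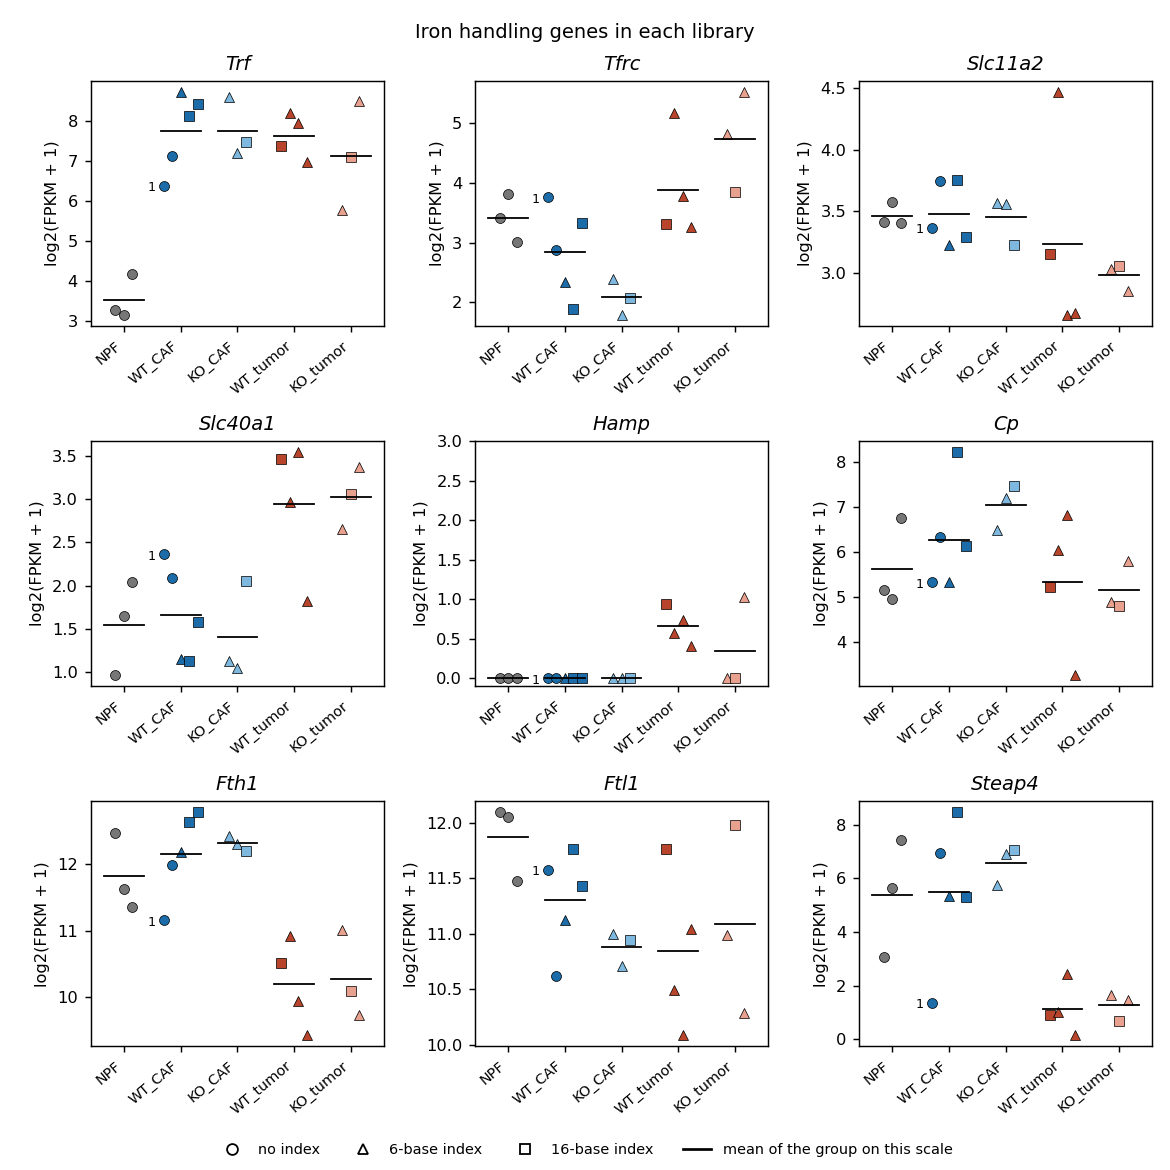
Each panel plots 1 gene as log2(FPKM + 1) in each of the 18 libraries by group; the shape of a point gives the library format, a line is the group mean, and the number 1 marks the library labelled WT_CAF 1. Trf is lowest in the 3 NPF libraries (7.92 to 17.2 FPKM), Fth1 in all 8 CAF libraries lies above all 7 tumor cell libraries, and Steap4 is low in the tumor cells and in WT_CAF 1.

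Tumor cells were then compared with the fibroblasts of the same kind of tumor, once with intact Saa3 (WT_tumor minus WT_CAF) and once in its absence (KO_tumor minus KO_CAF). These contrasts share no library, although they share the estimate of the spread and of the format effect. Differences are in log2(FPKM + 1) units from a fit that holds library format, with their standard error, and p-values are from limma with Benjamini-Hochberg adjustment over 13369 genes. WT_CAF 1 and 2, alone with NPF in their format, bear on the error of these differences and not on their size. With intact Saa3, 1 of 8 members tested rose in tumor cells (Slc40a1) and 2 fell (Steap4 and Fth1), where 9.05% of all genes tested rose and 12.5% fell. Without Saa3, 2 rose (Tfrc and Slc40a1) and 2 fell (Steap4 and Fth1), where 13.0% of all genes rose and 15.4% fell. With WT_CAF 1 and WT_tumor 4, the libraries that stood apart, both left out, the same 3 members were called with intact Saa3: Slc40a1 at 2.16 (adjusted p = 0.00054, limma), Steap4 at -4.88 (adjusted p = 0.0051, limma) and Fth1 at -2.06 (adjusted p = 0.012, limma). The median difference of the 8 members was -0.59 and -0.55, and that of all genes tested 0.07 and 0.05. In bulk RNA of sorted cells, a difference in the mix of cells and a difference in RNA per cell cannot be told apart.

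Tfrc, which brings in iron-loaded transferrin, had its highest group means in tumor cells, and its largest difference was that between KO_tumor and KO_CAF. It stood at 9.69, 13.1 and 7.11 FPKM in NPF, at 12.6, 6.33, 4.10, 2.71 and 9.002 in WT_CAF and at 4.24, 2.46 and 3.20 in KO_CAF. The tumor cell libraries had 8.93, 34.99, 12.8 and 8.65 FPKM (WT_tumor) and 27.2, 13.4 and 44.9 (KO_tumor). Every KO_tumor library lay above every KO_CAF library, while WT_CAF 1 and 5 overlapped the tumor cells. Tfrc rose by 2.64 ± 0.51 in KO_tumor over KO_CAF (adjusted p = 0.0025, limma), and was above the threshold also when any 1 library was left out (2.31 to 3.02). With intact Saa3 the difference was 1.17 ± 0.51 (adjusted p = 0.11, limma), and without WT_CAF 5 it passed the threshold (1.60, adjusted p = 0.040, limma; 0.040 to 0.48 over the alternatives). Within the 6-base and the 16-base libraries, which are also those of the fit, the difference was 1.72 and 0.70 with intact Saa3 and 3.08 and 1.77 without it. With intact Saa3 these values set 3 tumor cell libraries against 1 of CAF and 1 against 2. Without it they set 2 against 2 and 1 against 1. The difference between these contrasts was itself 1.48 ± 0.72, with a 95% interval of -0.07 to 3.03 that includes 0 (unadjusted p = 0.060, adjusted p = 1, limma), so the rise in tumor cells was not shown to differ between the settings of Saa3. Erythroid markers, which come with a cell type rich in Tfrc, had sums from 0.893 to 6.32 FPKM in NPF, from 0.735 to 59.5 in WT_CAF, from 3.97 to 82.0 in KO_CAF, from 2.64 to 59.5 in WT_tumor and from 0.581 to 22.6 in KO_tumor over the 7 of 8 listed that the table holds. The erythroid anion exchanger Slc4a1 was at 0 in NPF and WT_tumor. Their part in the Tfrc levels was not tested.

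Slc11a2, the importer that moves ferrous iron out of the endosome, varied little among fibroblasts. It stood at 9.67, 10.9 and 9.58 FPKM in NPF, at 9.31, 12.4, 8.39, 12.5 and 8.79 in WT_CAF and at 10.9, 10.8 and 8.39 in KO_CAF. In tumor cells it stood at 7.90, 21.1, 5.32 and 5.39 FPKM (WT_tumor) and at 7.19, 7.32 and 6.25 (KO_tumor). WT_tumor 2 was the highest library of all, and the 6 other tumor cell libraries lay below all 8 CAF libraries. The fitted differences were -0.19 ± 0.37 with intact Saa3 (95% interval -0.98 to 0.60) and -0.47 ± 0.37 without it (-1.27 to 0.33), and neither passed the test (adjusted p = 0.74 and 0.36, limma).

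Steap4, a reductase of ferric iron and copper, had the largest differences among the members. It stood at 7.42, 48.5 and 171 FPKM in NPF, at 1.56, 122, 39.6, 352 and 38.9 in WT_CAF and at 52.4, 119 and 131 in KO_CAF. WT_tumor had 0.853, 1.04, 4.43 and 0.107 FPKM and KO_tumor 2.17, 0.585 and 1.77. All fibroblast libraries except WT_CAF 1 lay above all tumor cells, and WT_CAF 1 lay among them. Steap4 fell by 5.15 ± 1.30 in WT_tumor against WT_CAF (adjusted p = 0.013, limma) and fell by 5.30 ± 1.32 in KO_tumor against KO_CAF (adjusted p = 0.0094, limma). With intact Saa3 the call was lost without WT_tumor 1 (-4.87, adjusted p = 0.057, limma) and in a fit of these groups alone (-5.01, adjusted p = 0.088, limma), in a range of 0.0023 to 0.088 over the alternatives. The genes with the pattern most like that of Steap4 were the laminin chain Lama4, Srpx and the amino acid transporter Slc43a1, with Pearson r of 0.98, 0.97 and 0.97 on log2(FPKM + 1) over the 18 libraries, which share groups and formats. Lama4 had group means of 40.9, 44.6 and 61.9 FPKM in NPF, WT_CAF and KO_CAF and of 1.48 and 0.885 in WT_tumor and KO_tumor. Of the tumor cell libraries, WT_tumor 3 had the most Steap4 (4.43 FPKM) and the highest sum of fibroblast markers (681), and the part of those markers in the Steap4 level was not tested.

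Ferroportin was higher in tumor cells in both settings of Saa3. Slc40a1 stood at 0.958, 2.13 and 3.11 FPKM in NPF, at 4.14, 3.26, 1.22, 1.20 and 1.98 in WT_CAF and at 1.19, 1.07 and 3.16 in KO_CAF. Among tumor cells, the 4 WT_tumor libraries had 10.03, 6.83, 10.6 and 2.53 FPKM and the 3 KO_tumor libraries 5.32, 7.32 and 9.35. WT_tumor 4 overlapped the fibroblasts, and the 6 other tumor cell libraries lay above all of them. Slc40a1 rose by 1.86 ± 0.39 in WT_tumor over WT_CAF (adjusted p = 0.0051, limma) and by 1.62 ± 0.40 in KO_tumor over KO_CAF (adjusted p = 0.0093, limma). In a fit of the WT_CAF and WT_tumor libraries alone the first difference missed the threshold (1.85, adjusted p = 0.058, limma; 0.00054 to 0.058 over the alternatives). Genes with the most similar pattern included Ippk, an inositol phosphate kinase (r = 0.91), and 0610040J01Rik (r = 0.90).

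Macrophages are rich in ferroportin and ferritin, and the 13 macrophage markers on the list had sums from 20.9 to 103 FPKM in NPF, from 70.5 to 217 in WT_CAF, from 38.3 to 305 in KO_CAF, from 41.3 to 239 in WT_tumor and from 63.8 to 245 in KO_tumor. The ranges of CAF and tumor cells overlapped. The markers differed in level. Ptprc and Emr1 reached at most 1.45 and 0.787 FPKM in any library. Lyz2 reached 127 FPKM (WT_CAF 4) and Cd14 170 (WT_tumor 3), while Tyrobp and Fcer1g had their highest values, 18.4 and 12.9, in KO_CAF 1. Csf1r stood at 3.13 to 8.85 FPKM in 7 of 8 CAF libraries and at 0.394 in WT_CAF 1, against at most 0.978 in NPF and 2.85 in tumor cells. Mrc1 had its highest values in tumor cells, at 0.684 to 9.14 FPKM in WT_tumor and 0.396 to 2.30 in KO_tumor. In the CAF libraries it stood at 0.0895 to 1.32. The part of these transcripts in the levels of Slc40a1, Fth1 and Ftl1 was not tested.

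Hepcidin was listed at 0 in all 11 fibroblast libraries. Hamp stood at 0.925, 0.493, 0.669 and 0.326 FPKM in WT_tumor and at 0, 0 and 1.04 in KO_tumor, so 1 library of 18 reached 1 FPKM. No fold is given against a group listed at 0. Its close paralog Hamp2 was at 1.23, 3.50 and 9.04 FPKM in NPF, at most 0.393 in the CAF libraries, at 2.26, 3.39, 0.760 and 0 in WT_tumor and at 0, 7.201 and 15.8 in KO_tumor. The table does not show how reads that fit both genes were divided, so the split between Hamp and Hamp2 is uncertain. The 5 CAF and tumor cell libraries with the most Hamp2 (KO_tumor 3, KO_tumor 2, WT_tumor 2, WT_tumor 1 and WT_tumor 3) were also those with the highest acinar sums, between 2290 and 27168 FPKM. The part of acinar RNA was not tested. Hepatocytes are the main source of hepcidin and of plasma Trf and Cp, and of their markers Alb stayed at 0.836 FPKM or less in every library. Ahsg, another hepatocyte marker, did not: it had 0.628 to 33.5 FPKM in WT_CAF, with the lowest value in WT_CAF 1, and 2.28 to 51.2 in KO_CAF, against at most 1.21 in NPF and 0.488 in tumor cells. The 8 hepatocyte markers had sums from 2.24 to 4.36 FPKM in NPF, from 2.40 to 59.1 in WT_CAF, from 3.06 to 57.2 in KO_CAF, from 2.34 to 3759 in WT_tumor and from 3.41 to 11.1 in KO_tumor, and the highest sum was 1 gene, Apoa1, at 3745 FPKM in WT_tumor 2. The part of these transcripts in the levels of Trf and Cp was not tested.

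Cp, the ferroxidase that works beside ferroportin, varied widely within groups. It stood at 34.5, 30.1 and 108 FPKM in NPF, at 39.2, 80.3, 39.6, 296 and 69.8 in WT_CAF and at 89.3, 146 and 177 in KO_CAF. WT_tumor had 36.5, 65.3, 112 and 8.64 FPKM and KO_tumor 28.7, 27.0 and 54.6. KO_tumor lay below KO_CAF in every library, and the WT groups overlapped. The differences were -1.05 ± 0.83 (adjusted p = 0.38, limma) and -1.89 ± 0.84 (adjusted p = 0.11, limma). In a fit of KO_CAF and KO_tumor alone the latter passed the threshold at the same size (adjusted p = 0.024, limma; 0.024 to 0.31 over the alternatives).

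The heavy ferritin subunit was the 1 member whose CAF and tumor cell libraries did not overlap. How many of all genes part these libraries in the same way was not counted. Fth1 stood at 5657, 3164 and 2607 FPKM in NPF, at 2283, 4040, 4641, 6312 and 6989 in WT_CAF and at 5483, 5056 and 4693 in KO_CAF. In WT_tumor it stood at 1457, 1937, 983 and 691 FPKM and in KO_tumor at 2067, 1093 and 850. The lowest fibroblast library was WT_CAF 1, and it too lay above every tumor cell library. Fth1 fell by 2.27 ± 0.49 in WT_tumor against WT_CAF (adjusted p = 0.0058, limma) and fell by 2.03 ± 0.50 in KO_tumor against KO_CAF (adjusted p = 0.0090, limma). Within the 6-base and 16-base libraries the differences were -2.08 and -2.19 with intact Saa3 and -1.99 and -2.10 without it. With intact Saa3 these values set 3 tumor cell libraries against 1 of CAF and 1 against 2. Without it they set 2 against 2 and 1 against 1. They come from the libraries of the fit and are no separate check of it. Without the filter on low values both calls were lost at the same sizes (adjusted p = 0.067 and 0.087, limma), in ranges of 0.0024 to 0.067 and 0.0033 to 0.087 over the alternatives. In 10 of the 11 fibroblast libraries Fth1 was among the 17 genes with the highest FPKM, with NPF 1 at place 23 the exception, and in the tumor cells it took places 23 to 119. The genes with the most similar pattern were the endocytic adaptor Dab2 (r = 0.94), the mitochondrial superoxide dismutase Sod2 (r = 0.94) and Rasl11a (r = 0.92). Sod2 had group means of 17.6, 25.8 and 23.5 FPKM in NPF, WT_CAF and KO_CAF and of 7.85 and 9.33 in WT_tumor and KO_tumor.

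The light subunit did not follow it. Ftl1 stood at 4377, 4265 and 2840 FPKM in NPF, at 3054, 1576, 2233, 3490 and 2755 in WT_CAF and at 2047, 1673 and 1966 in KO_CAF. In WT_tumor it stood at 3491, 1441, 1085 and 2112 FPKM and in KO_tumor at 2034, 4047 and 1250. Every pair of groups overlapped except NPF and KO_CAF, and the highest library of WT_CAF, of WT_tumor and of KO_tumor was in each case one with a 16-base index. The tumor cell differences were -0.26 ± 0.43 (95% interval -1.19 to 0.67) and 0.20 ± 0.44 (-0.74 to 1.15), neither past the threshold (adjusted p = 0.69 and 0.76, limma). RefSeq names 2 pseudogenes for each ferritin subunit, and the sources used here do not say how reads were divided among such copies.

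Since FPKM is per length, the subunits can be set beside each other within a library. The ratio of Fth1 to Ftl1 FPKM ran from 0.742 to 1.29 in NPF, from 0.748 to 2.56 in WT_CAF, from 2.39 to 3.02 in KO_CAF, from 0.327 to 1.34 in WT_tumor and from 0.270 to 1.02 in KO_tumor. The heavy subunit was the more abundant mRNA in 7 of 8 CAF libraries, with WT_CAF 1 the exception, and in 2 of 7 tumor cell libraries. The total FPKM of some CAF libraries lacks collagens that are listed at 0 there, which bears on shares of that total. The summed FPKM of both subunits made up 0.942% to 2.24% of all FPKM in WT_CAF and 1.15% to 1.45% in KO_CAF. It made up 0.399% to 1.15% in WT_tumor and 0.434% to 1.15% in KO_tumor, and the upper ends of the tumor cells were the 16-base libraries WT_tumor 1 and KO_tumor 2.

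Tfrc and Fth1 are the uptake and storage ends of the iron-responsive system shown above. The log2 ratio of their FPKM (with 1 added to each) averaged -8.40 in NPF, -9.30 in WT_CAF, -10.22 in KO_CAF, -6.32 in WT_tumor and -5.55 in KO_tumor. Every tumor cell library, from -7.198 upward, lay above every fibroblast library, of which WT_CAF 1 was the highest at -7.39. The log2 ratio of Tfrc to Slc40a1, of uptake to export, averaged 1.87 in NPF, 1.18 in WT_CAF, 0.67 in KO_CAF, 0.94 in WT_tumor and 1.70 in KO_tumor, and did not part tumor cells from fibroblasts. The ratios combine members already described and were not tested. The hairpins of Fth1 and Slc40a1 bear on translation, which FPKM cannot read, so these mRNA ratios do not measure the state of the iron-responsive system.

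**Figure D2:**
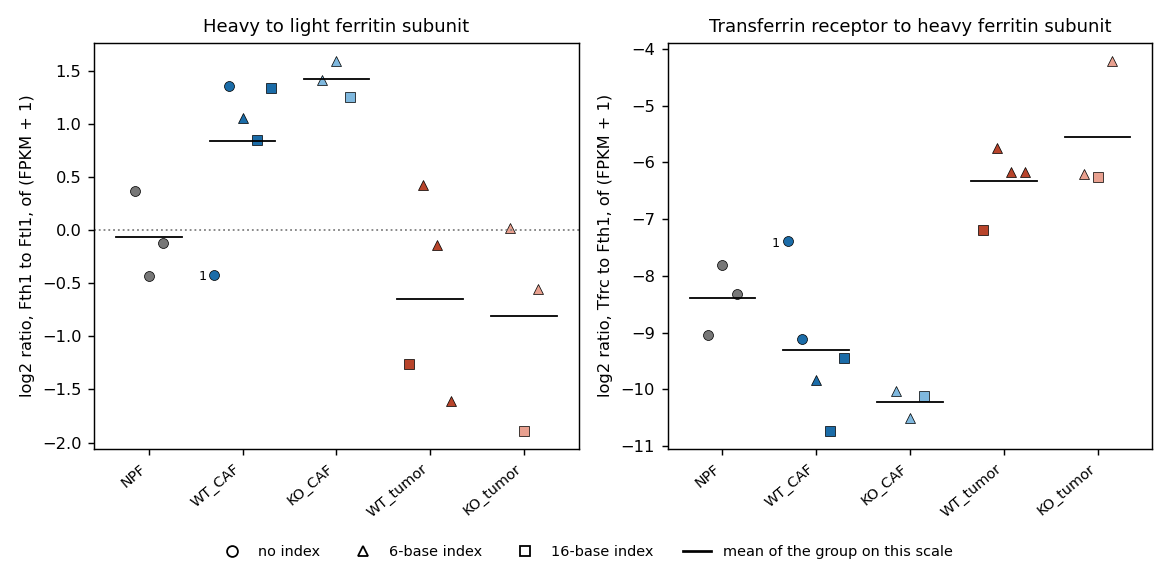
The log2 ratio of Fth1 to Ftl1 (left) and of Tfrc to Fth1 (right), from FPKM + 1, is plotted for each library by group; lines are group means, shapes give the format, the dotted line marks equal values and the number 1 marks the library labelled WT_CAF 1. On the right all 7 tumor cell libraries lie at -7.198 or above and all 11 fibroblast libraries at -7.39 or below.

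Across the 18 libraries the members fell into no single pattern. On log2(FPKM + 1), Pearson r was 0.78 between Steap4 and Fth1, 0.73 between Steap4 and Cp and 0.69 between Tfrc and Slc40a1, and it was -0.79 between Slc40a1 and Fth1, -0.73 between Tfrc and Steap4 and -0.63 between Tfrc and Fth1. For Trf and Tfrc it was -0.10 and for the ferritin subunits 0.28. These points share cell type, group and format. The genes most like Trf were the transcription factor Runx1 (r = 0.92), Pacs1 (r = 0.88) and the chemokine Cx3cl1 (r = 0.87), and those most like Tfrc the glutathione transferase Gsta4 (r = 0.90), Ahcyl2 (r = 0.88) and Gsto1 (r = 0.88). Like Trf, Runx1 was lowest in NPF, with a group mean of 3.11 FPKM there against 26.1 in WT_CAF, 27.2 in KO_CAF, 17.1 in WT_tumor and 16.7 in KO_tumor. Gsta4 had group means of 23.8, 27.9 and 8.49 FPKM in NPF, WT_CAF and KO_CAF and of 170 and 303 in WT_tumor and KO_tumor. The closest genes were Inpp5b (r = 0.83), Anpep (r = 0.80) and Enpep (r = 0.79) for Slc11a2, Mfsd5, Fez2 and Rnasek (each r = 0.90) for Ftl1, and Xbp1 (r = 0.86), Slc44a1 (r = 0.85) and Arrdc4 (r = 0.84) for Cp. Each was taken from the 8390 tested genes that averaged at least 5 FPKM.

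Loss of Saa3 was compared within fibroblasts and within tumor cells, and none of the 8 members passed the test in either. With limma, 0 of 8 were called in KO_CAF minus WT_CAF, where 0.00748% of all genes tested were called (1 gene, and 125 at an unadjusted p under 0.05). In KO_tumor minus WT_tumor 0 of 8 were called, where 0.00% of all genes were called (528 at an unadjusted p under 0.05), and for the difference between these effects it was again 0 of 8 beside 0.00% (185). The adjusted p was 1 for each of the 8 genes in each of these contrasts. In fibroblasts the differences ran from -0.77 ± 0.60 for Trf (95% interval -2.05 to 0.52) to 0.63 ± 0.87 for Cp (-1.23 to 2.50). In tumor cells they ran from -0.47 ± 0.54 for Trf (-1.64 to 0.70) to 0.88 ± 0.48 for Tfrc (-0.15 to 1.92). The intervals are wide for Steap4, at -2.63 to 3.18 in fibroblasts and -2.53 to 2.76 in tumor cells, and narrowest for Slc11a2, at -0.80 to 0.85 and -1.01 to 0.50. The median difference of the members was -0.08 in fibroblasts and 0.05 in tumor cells, and that of all genes -0.01 and -0.02.

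**Figure D3:**
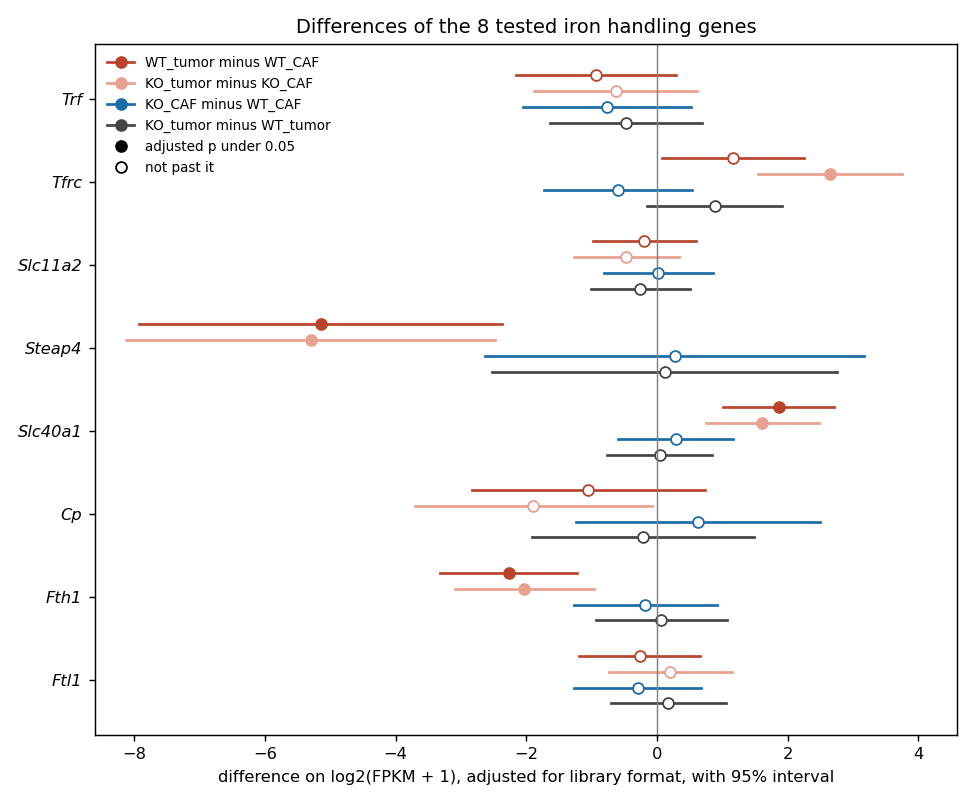
Differences on log2(FPKM + 1), adjusted for library format, are plotted for the 8 tested members in 4 contrasts; bars are 95% intervals and filled points have an adjusted p under 0.05. Both contrasts of tumor cells against fibroblasts are filled for Steap4, Slc40a1 and Fth1, that without Saa3 also for Tfrc, and no knockout contrast is filled.

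WT_CAF was set against NPF for the remaining members as a description, because the set was chosen with that contrast known. The differences were 0.67 for Slc40a1, 0.21 for Cp, 0.09 for Slc11a2, -0.10 for Tfrc, -0.25 for Fth1, -0.78 for Ftl1 and -1.22 for Steap4, against 3.22 for Trf. Only WT_CAF 1 and 2 share a format with NPF, and 5 of these differences changed sign with which of the pair was left out. Steap4 was 1.57 without WT_CAF 1 and -4.02 without WT_CAF 2, and Fth1 0.17 and -0.66. Cp was 0.72 and -0.30, Tfrc -0.54 and 0.35, and Slc11a2 0.28 and -0.10. Those of Ftl1 (-1.25 and -0.30), Slc40a1 (0.54 and 0.81) and Trf (3.60 and 2.84) had 1 sign. Without the format term Fth1 was 0.33 and Steap4 0.11, both with the sign turned. No direction is therefore given for the 5 that changed sign.

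Other genes of iron handling were taken from a list of 48, of which 46 were matched in the table and 41 passed the filter. Between WT_tumor and WT_CAF 2 of 41 rose and 6 fell (4.88% and 14.6%), and between KO_tumor and KO_CAF 6 rose and 7 fell (14.6% and 17.1%), beside the shares of all genes given above. The list's median difference was 0.07 and -0.11, against 0.07 and 0.05 for all genes. In a fit of the WT groups alone 3 of 41 were called. Over all 13369 genes that fit called 238 higher and 504 lower, against 1210 and 1670 with all 18 libraries. The count of 13 in the absence of Saa3 was 5 with KO_CAF 2 left out, 8 with KO_CAF 3, 7 with KO_tumor 1 and 8 with KO_tumor 2 left out. Calls over all genes were fewer there too, at 2193, 2309, 2588 and 2570 in the same order. With all libraries 1741 genes were called higher and 2057 lower. None of the 41 was called in the knockout contrasts or in their difference by limma.

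Over all genes tested, 6.98% rose in both settings and 10.4% fell in both. Of 13 uptake genes, 3 (23.1%) fell in tumor cells in both settings: Lrp1, an endocytic receptor that also takes up heme bound to hemopexin, Steap3, the main ferrireductase of the transferrin endosome, and Slc39a14 (ZIP14), an importer of iron not bound to transferrin. Lrp1 stood at 63.5 to 655 FPKM in the 8 CAF libraries and at 1.62 to 23.1 in the 7 tumor cell libraries. It fell by 4.24 ± 0.52 with intact Saa3 (adjusted p = 0.00031, limma) and fell by 4.98 ± 0.53 without it (adjusted p = 8.9e-05, limma). Steap3 had 10.7 to 81.5 FPKM in CAF and 0.684 to 2.90 in tumor cells. It fell by 4.03 ± 0.75 with intact Saa3 and fell by 3.92 ± 0.76 without it. The adjusted p of both was 0.0024 (limma). Slc39a14 fell by 2.49 ± 0.45 and, without Saa3, fell by 2.30 ± 0.45, with 18.7 FPKM in WT_CAF 1, the lowest CAF library, just below the 18.8 of the highest tumor cell library. Lactoferrin (Ltf), an iron-binding secreted protein, rose by 4.91 ± 1.53 in KO_tumor over KO_CAF (adjusted p = 0.029, limma), from 11.2, 0.0181 and 1.82 FPKM to 260, 22.1 and 156. The duodenal ferrireductase Cybrd1 rose there by 2.16 ± 0.70, from 0.761, 0.510 and 0.672 FPKM to 8.18, 0.9199 and 21.4.

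Among the 8 genes of hepcidin control, 1 was called in each direction in each setting (12.5%), beside the 9.05% to 15.4% of all genes given above. Hfe, a partner of the transferrin receptors that senses iron, stood at 1.18 to 24.8 FPKM in the CAF libraries and at 0.166 to 0.715 in tumor cells. It passed the filter through the fibroblasts alone and so had to differ, and its calls as lower, which are among the counts above, are given as a description. Fam132b, which encodes erythroferrone, a suppressor of hepcidin, rose by 2.99 ± 0.74 with intact Saa3 (adjusted p = 0.011, limma), and its highest fibroblast library was WT_CAF 1 at 10.2 FPKM. Hamp2 was called higher without Saa3 (adjusted p = 0.042, limma), but it is listed at 0 in all 3 KO_CAF libraries and in KO_tumor 1, and its split from Hamp is uncertain, so no difference is given. Of the export and oxidation genes 2 were tested, and the membrane ferroxidase hephaestin (Heph) was called lower without Saa3. KO_CAF had 3.70, 13.0 and 12.5 FPKM of it and KO_tumor 0.258, 0.0458 and 0.891, all under the level of the filter. Among tumor cells only WT_tumor 2 reached that level, at 15.99 FPKM, the highest value of all libraries. Heph thus passed the filter through the fibroblasts, and its call, which is among the counts above, is given as a description.

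Of 12 genes of mitochondrial iron and heme, the scaffold of iron-sulfur clusters Iscu and the last enzyme of heme synthesis Fech fell in both settings (16.7%, beside the 10.4% of all genes). Iscu fell by 1.47 ± 0.34 with intact Saa3 and fell by 1.37 ± 0.34 without it. Fech fell by 1.03 ± 0.34 and, without Saa3, fell by 1.11 ± 0.35. The cysteine desulfurase Nfs1, which supplies their sulfur, rose in both, by 0.60 ± 0.20 and 0.86 ± 0.20. Among the 6 genes of iron sensing and ferritin handling, which include both iron regulatory proteins (Aco1 and Ireb2) and the ferritin receptor Ncoa4, 1 was called: the iron chaperone Pcbp2 rose without Saa3 by 0.67 ± 0.23 (1 of 6 or 16.7%, beside the 13.0% of all genes that rose). Several of these values lay near the threshold, with adjusted p of 0.044 and 0.029 for Fech, 0.043 and 0.0068 for Nfs1 and 0.042 for Pcbp2 (limma). Pcbp2 moved with the library format, at 7.32 to 18.98 FPKM in the 5 libraries with a 16-base index.

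**Figure D4:**
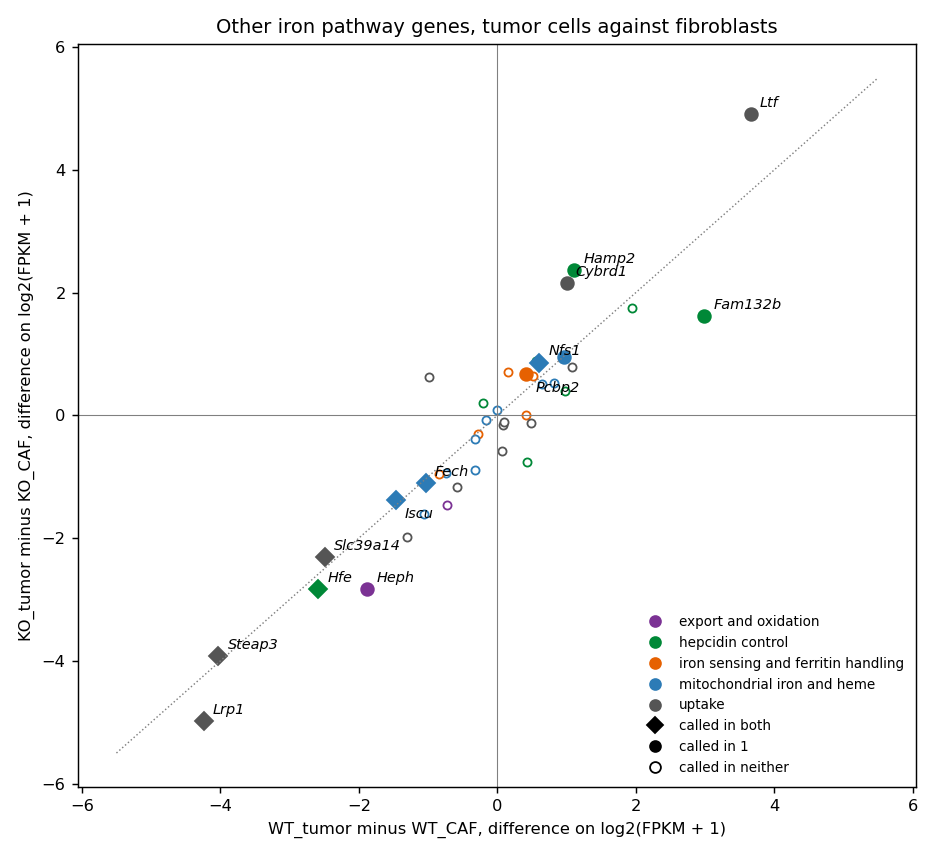
Each point is 1 of the 41 tested iron pathway genes, with its difference on log2(FPKM + 1) between WT_tumor and WT_CAF (horizontal axis) and between KO_tumor and KO_CAF (vertical axis); colors give the list group, filled diamonds are called in both contrasts, filled circles in 1, the dotted line marks equal differences, and labels mark the called genes that the text names. Lrp1, Steap3, Slc39a14, Hfe, Iscu and Fech are called lower in both and Nfs1 higher in both.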

How the data were processed

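The authors deposited 1 table of FPKM values for 23951 gene symbols and 18 libraries. Per the labels' protocols, an Illumina TruSeq RNA kit and a HiSeq2000 were used. The submitters' processing notes name, with no role or order, Cufflinks 2.2.1, Cuffnorm, TopHat2 2.0.10, Bowtie 1.0.0, FastQC and SAMtools 0.1.19. Of the builds in the notes (mm9, GRCh37, hg19) mm9 is the mouse genome. The sources used here do not give their settings or the annotation. FPKM holds no counts, so the depth is unknown and no counting interval is given; a listed 0 can be a failed estimate.

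From the deposited FPKM, log2(FPKM + 1) was fitted with limma 3.58.1 (R 4.3.3, empirical Bayes with trend) for genes at 1 FPKM or more in at least 3 libraries (13369 tested, 10582 removed). All 18 libraries entered 1 fit with group and library format (11 residual degrees of freedom). Tests were two-sided, adjusted by Benjamini-Hochberg over all genes tested and called at adjusted p under 0.05. The scale understates changes of low genes. The script was tested on simulated data. WT_CAF against NPF got no test.

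The members, the iron pathway list and the marker lists were chosen with earlier results of these data known. Named were all members, in each contrast the called pathway genes (at most the 8 with the largest difference; Pcbp2 was added after its values were seen), and for each tested member the 3 genes with the highest Pearson r. Marker lists were macrophage, erythroid, hepatocyte, fibroblast, epithelial, acinar, mesothelial, endothelial and Schwann genes. The last 3, of 5 genes each, summed in fibroblast and tumor cell libraries to 20.1 to 179 and 98.3 to 463 FPKM (mesothelial), 0.424 to 42.2 and 0.864 to 3.52 (endothelial), and 2.21 to 20.1 and 2.87 to 20.5 (Schwann; Sox10 at 0 in NPF, WT_tumor and KO_tumor). The mesothelial sums of the tumor cells were mostly Msln (98.1 to 460 FPKM). Upk3b, Lrrn4, Wt1 and Upk1b, the rest of that list, reached at most 2.81 FPKM in tumor cells and 73.0 in fibroblasts. Groups came from the treatment label and replicates were numbered in deposition order. Alternatives were another pseudocount, no filter, other scalings, no format term, no trend, fits of fewer groups and leaving out libraries. One further allele of the mouse model and some listed or similar genes are not reported here. Hairpins were read from GENCODE M21 transcripts.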

Additional observations from a re-analysis of the deposited data

How the results depend on the processing

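Depth is unknown, and p-values measure the spread of 3 to 5 libraries a group. No paired analysis was possible because the labels carry no replicate numbers that groups share. In a fit of the groups of a contrast alone, with fewer libraries behind the spread, 1 member and 3 iron pathway genes were called between WT_tumor and WT_CAF, against 3 and 8. Over all genes 238 were called higher and 504 lower in that fit, against 1210 and 1670. Leaving out 1 library gave 2 to 4 members and 6 to 11 pathway genes between WT_tumor and WT_CAF, and 4 members and 5 to 17 pathway genes between KO_tumor and KO_CAF, where no filter gave 8 pathway genes against 13. Calls over all genes moved as well. Between KO_tumor and KO_CAF they ran from 891 higher and 1302 lower without KO_CAF 2 to 2057 and 2378 without WT_CAF 1. Between WT_tumor and WT_CAF they ran from 440 and 761 without WT_CAF 3 to 1550 and 2002 without WT_CAF 1. The counts of 0 in the knockout contrasts were 0 under all 26 alternatives. Scaling every library to the same sum moved the median of all genes between WT_tumor and WT_CAF from 0.07 to 0.23. Fth1, Slc40a1 and Steap4 had the same direction there, at -2.08, 2.27 and -5.47. Hamp, listed at 0 in every fibroblast library, passed the filter in that setting through the tumor cells alone. It was called as well, but it had to differ, so that call is given as a description. The differences of Fth1, Slc40a1, Steap4 and Tfrc had the same direction under all 26 alternatives in both contrasts of tumor cells against fibroblasts. Of the untested differences between WT_CAF and NPF, without the format term Fth1 was 0.33, Slc40a1 0.11 and Trf 4.22. Ftl1 was -0.21 after quantile normalization and -1.25 with WT_CAF 1 and WT_tumor 4 both left out, where Steap4 was 1.57. Leaving out 1 library gave -1.25 to -0.30 for Ftl1 and -4.02 to 1.57 for Steap4. The mean log2 ratio of Tfrc to Fth1 in KO_CAF was -10.57 with a pseudocount of 0.1, against -10.22. The cause of these shifts was not tested.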

Other observations

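Iron pathway genes called in none of the contrasts tested still showed wide ranges. NPF was not part of those contrasts, and how many of all genes set NPF apart from the other libraries was not counted. Hmox1, the heme oxygenase that frees iron from heme, stood at 232, 545 and 292 FPKM in NPF, from 43.6 to 134 in WT_CAF, from 33.4 to 156 in KO_CAF, from 13.4 to 108 in WT_tumor and from 16.8 to 41.9 in KO_tumor, so NPF lay above all 15 other libraries. Lcn2 (lipocalin 2), which binds bacterial siderophores, stood at 10.9, 0.215 and 0.190 FPKM in NPF, at 1.70, 77.3, 56.0, 185 and 46.3 in WT_CAF and at 212, 92.5 and 83.6 in KO_CAF. In WT_tumor it stood at 49.5, 140, 259 and 1.62 FPKM and in KO_tumor at 485, 58.9 and 213. WT_CAF 1 and WT_tumor 4, the libraries that stood apart by their markers, were also those with the least Lcn2 outside NPF. These genes were named after their values were seen, and NPF differs from the tumor cells and from 3 of 5 WT_CAF libraries in format as well as in group.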
